A study of Hordeum vulgare with 18 samples.

Results

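miR5083 is a microRNA family that the deposited annotation knows from a precursor of rice, Oryza sativa. Its members here were all listed small RNA sequences whose annotation names MIR5083, and the rule found 40 of the 7252 sequences listed in any of the 3 tables of the study. The 1 h table held 32 members among 4750 sequences, that of 3 h held 28 among 4671 and that of 6 h 29 among 4603, and 20 members were listed in all 3. Every member named MIR5083 and no other family, and all matched the rice precursor with 0 mismatches. The family was chosen with its response to heat known, so the values of heat against control below are a description and carry no p-value.

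Small RNAs of 18 to 25 nt were listed for shoots of spring barley of the line Rolap, 2 weeks old. The plants were grown with days of 16 h at 21 °C and nights at 15 °C. The plants stood at 35.5 °C (heat) or stayed at 21 °C (control) for 1, 3 or 6 h, and each of the 6 groups had 3 libraries that the labels call biological replicates. The labels give 1 genotype and no further agent for all groups. The labels do not say whether plants were pooled within a library. Heat and control of 1 h and heat of 3 h were sequenced on 1 lane, and control of 3 h and both groups of 6 h on another, so that at 3 h lane and temperature cannot be told apart. The tables held 1449374 to 3214221 counts per library, 5.11% to 9.02% of the library totals that the deposited values imply (23280481 to 44219180). miR5083 took 328 to 972 of these counts per library, which is 10.5 to 31.2 reads per 1000000 reads of the library (RPM), and 3 counts correspond to 0.0678 to 0.129 RPM.

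A plant microRNA is cut by a DICER-LIKE enzyme from the stem of a folded precursor transcript, and the duplex that results contributes 1 strand, the mature microRNA, to an ARGONAUTE protein. Canonical plant microRNAs have a narrow range of lengths and commonly begin with U, written T here. Other stretches of a precursor also yield reads, from the opposite strand of the duplex, from shifted cuts or from breakdown, and a read listed as a precursor sequence is not by that name a functional microRNA. No target of miR5083 is named here.

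The members fell into 2 groups of overlapping sequences. The large group held 35 members, which tile a span of 30 nt and share 12 bases, at positions 10 to 21 of that span. It carried 10342 of the family's 10366 counts over the 18 libraries (99.8%). The small group held the other 5 members, lay over the annotated mature arm with a span of 21 nt, and had 24 counts (0.232%). The 12 members with over 200 counts, all of the large group, are shown because they set the family total. They are written 5′ to 3′ in DNA letters, as listed in the deposited tables, with the 12 shared bases in capitals:
rank 1, 21 nt, 2771 counts: ccaaTGGATCCTTCTGagcct
rank 2, 18 nt, 2504 counts: aTGGATCCTTCTGagcct
rank 3, 22 nt, 817 counts: accaaTGGATCCTTCTGagcct
rank 4, 23 nt, 786 counts: aaccaaTGGATCCTTCTGagcct
rank 5, 24 nt, 562 counts: aaaccaaTGGATCCTTCTGagcct
rank 6, 24 nt, 539 counts: aaccaaTGGATCCTTCTGagcctg
rank 7, 25 nt, 405 counts: gaaaccaaTGGATCCTTCTGagcct
rank 8, 19 nt, 371 counts: aaTGGATCCTTCTGagcct
rank 9, 25 nt, 342 counts: aaaccaaTGGATCCTTCTGagcctg
rank 10, 23 nt, 300 counts: accaaTGGATCCTTCTGagcctg
rank 11, 20 nt, 296 counts: caaTGGATCCTTCTGagcct
rank 12, 19 nt, 243 counts: aTGGATCCTTCTGagcctg

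The member annotated as the mature 3′ sequence is shown because it is what the family is named for, with its seed, bases 2 to 8, in capitals:
mature 3′, 20 nt, 5 counts: aGACTACAattatctgatca

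The mature sequence was nearly absent from these shoots. It had 4 counts in control 3 h replicate 1, 1 count in control 1 h replicate 3 and 0 counts in every other library, in all 0.0482% of the family's counts. The 4 other members of its arm had 12, 5, 1 and 1 counts over all libraries. All members but this 1 are listed as precursor sequences, and the level of the family rests on the large group. The 35 members of the large group share 1 stretch of precursor and the 5 of the small group another, so the members are not replicates of each other. No genome was used, and reads of near-identical copies elsewhere in the barley genome cannot be told apart from those of the family.

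The right ends of the large group were nearly fixed while the left ends varied. A 3′ end at position 26 of the span (…agcct) took 67.8% to 89.4% of the group's counts over the 18 libraries, with a median of 83.1%. An end 1 base later (…agcctg) took 8.00% to 30.3%, with a median of 14.1%. The 5′ ends were spread over positions 1 to 10, and the 2 most used were position 6, the start of the 21 nt member, with a median of 28.9% of counts, and position 9, the start of the 18 nt member, with a median of 25.8%. Each start from position 2 to position 9 took over 2% of counts in the median library. Since the tables stop at 18 and 25 nt, shorter and longer reads of the same ladder were not seen.

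**Figure D1:**
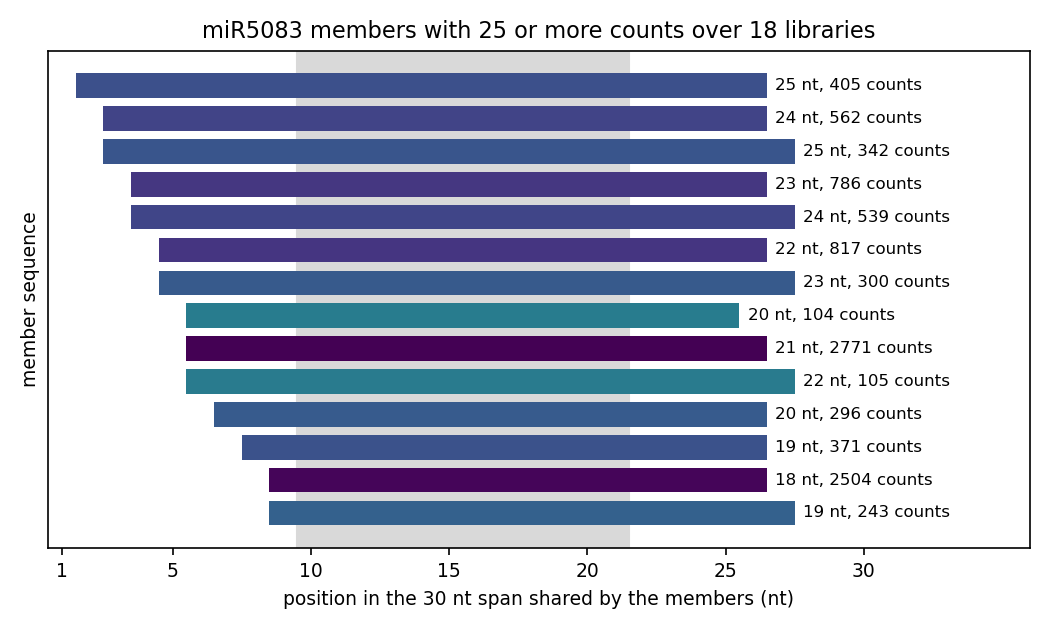
Positions of the 14 miR5083 members with 25 or more counts on the 30 nt span they share, in nt from its left end. Each bar is 1 member, labelled with its length and its counts over 18 libraries, a darker bar has more counts, and the grey band marks the 12 shared bases. Right ends stack at positions 26 and 27, except for the 20 nt member with 104 counts, which ends at position 25. Left ends step through positions 2 to 9.

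Between the 14 members of that map and the others lay a wide gap in counts. The 13th and 14th members had 105 and 104 counts, and the other 26 had fewer than 25 each. Because most small members were read in few libraries, the values by group below are given for the members with over 200 counts.

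The family's sequences were spread over more lengths than those of the tables as a whole. By mean RPM over the 18 libraries the family ranked 29 of 222 families (17.9 RPM), of which 62 had a mean of at least 1 RPM. Members of 20 to 22 nt made up 38.4 ± 5.36% of its counts in heat libraries, against 95.1 ± 0.562% of the counts of all other listed sequences in the same libraries. In control libraries the shares were 43.2 ± 7.20% for the family and 95.4 ± 0.329% for the other sequences (SD, n = 9 libraries each). The family held less of this class in all 18 libraries.

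The counts missing from 20 to 22 nt lay on both sides of it. Members of 18 to 19 nt took 32.5 ± 5.66% of the family's counts in heat, where the other sequences stood at 4.47 ± 0.577%. In control they took 27.6 ± 5.95%, where the other sequences stood at 4.10 ± 0.330%. Members of 23 to 25 nt took 29.0 ± 5.27% in heat against 0.468 ± 0.0829% of the other sequences, and 29.3 ± 8.28% in control against 0.490 ± 0.0604%. A 5′ T was rare in the family and common in the pool of the other sequences. It began 0.0943 ± 0.154% of the family's counts in heat against 90.7 ± 0.979% of the others, and 0.271 ± 0.335% in control against 89.5 ± 0.487% (SD, n = 9 each). Each of these differences had the same direction in all 18 libraries. The classes were chosen after the values had been seen, so the shares are a description with no test, and they set 1 family beside a pool led by a few abundant families.

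Set against single families, none of these traits was particular to miR5083. Among the 62 families with a mean of at least 1 RPM, miR5083 was 1 of 22 with under 1% of their counts in mature sequences, where the median family had 18.8%. In 13 families, miR5083 included, 18 to 19 nt sequences reached its share of 30.7%, where the median family had 3.19%. In 10 families, miR5083 included, 23 to 25 nt sequences reached its share of 29.0%, where the median was 0.983%. A 5′ T began 52.7% of the counts of the median family, and miR5083 was 1 of 6 families under 1%. The most abundant sequence of the family held 26.7% of its counts, where the median family's top sequence held 51.6%. Close to miR5083 in lengths was miR5538, with 31.9% at 18 to 19 nt, 35.7% at 20 to 22 nt and 32.5% at 23 to 25 nt. It had 0.192% of its counts in mature sequences, but 30.1% of them began with T.

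The family total was higher in heat, and the difference was largest after 6 h, though its change with time was not tested. At 6 h it stood at 28.3, 31.2 and 25.8 RPM in heat, against 13.4, 13.8 and 15.9 RPM in control. Every heat library lay above every control library, and the means were 28.5 ± 2.69 RPM in heat and 14.4 ± 1.30 RPM in control (SD, n = 3 each), a ratio of 1.98. At 3 h, where lane and temperature go together, it stood at 18.8, 19.6 and 19.3 RPM in heat, against 10.5, 14.8 and 13.4 RPM in control. The groups again did not overlap, and the ratio of means was 1.49 (19.2 ± 0.448 RPM in heat, 12.9 ± 2.19 RPM in control). At 1 h it stood at 16.5, 16.6 and 22.0 RPM in heat, against 12.6, 13.2 and 16.7 RPM in control. Here the ranges overlapped, since the highest control library lay above the 2 lower heat libraries (18.3 ± 3.15 RPM in heat, 14.2 ± 2.23 RPM in control). In RNA from whole shoots a change per cell and a change in the share of the cells that hold the RNA cannot be told apart.

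**Figure D2:**
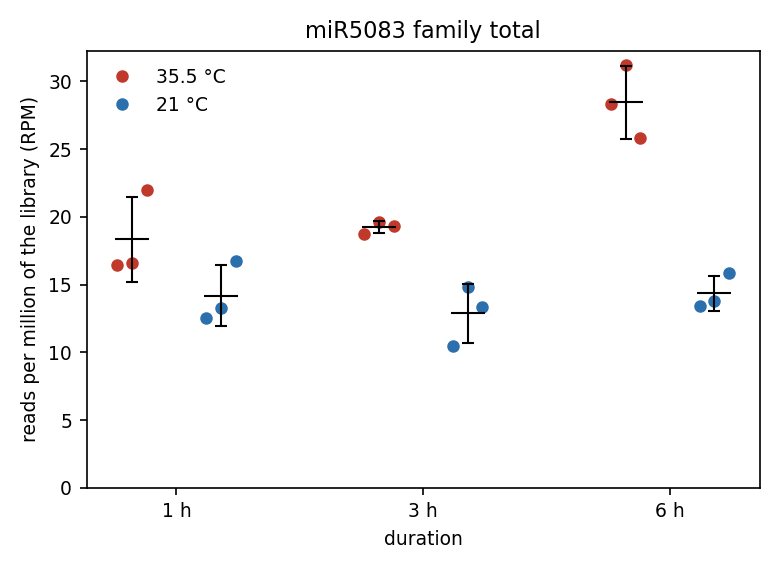
Summed level of the 40 miR5083 members in RPM (vertical axis) at 1, 3 and 6 h, with heat (35.5 °C, red) left of control (21 °C, blue). Points are libraries, bars are mean ± SD (n = 3). The 3 heat libraries of 6 h lie between 25.8 and 31.2 RPM and those of control between 13.4 and 15.9 RPM.

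Ordered by mean, the groups ran as control 3 h, control 1 h, control 6 h, heat 1 h, heat 3 h and heat 6 h. The 3 control groups overlapped each other, and so did heat of 1 h and 3 h. The 3 heat libraries of 6 h lay above all other 15 libraries. Heat of 6 h was sequenced on another lane than heat of 1 h and 3 h, so lane and duration cannot be told apart there.

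Levels scaled to the counts of the listed sequences and edgeR's TMM factors (CPM) gave a different picture at 1 h. On this scale the family stood at 247, 268 and 380 CPM in heat 1 h, against 179, 167 and 234 CPM in control 1 h, so that those groups did not overlap. The fitted log2 change of heat over control was 0.62 ± 0.25 (SE) at 1 h, where the median of 75 families was 0.12. It was 0.37 with the implied library totals and 0.39 without heat 1 h replicate 3, the library with the highest total. At 3 h the family averaged 281 ± 12.1 CPM in heat and 197 ± 20.8 CPM in control (SD, n = 3 each), a log2 change of 0.51 ± 0.15 with a median of -0.20 over 76 families. At 6 h it averaged 394 ± 61.9 CPM in heat and 234 ± 21.2 CPM in control, a log2 change of 0.75 ± 0.20 with a median of -0.08 over 75 families. Relative to those medians the family's log2 change was 0.50 at 1 h, 0.72 at 3 h and 0.83 at 6 h. The family was among the 8 highest of the families tested at 1 h, the 8 highest at 3 h and the 7 highest at 6 h. It was chosen on these values, so its rank is no support for them.

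Much of the difference at 6 h lay in the 18 nt member, aTGGATCCTTCTGagcct. It stood at 9.42, 10.8 and 6.42 RPM in heat 6 h, against 2.37, 1.08 and 3.78 RPM in control 6 h. All 3 heat libraries were above all 3 control libraries, with 8.88 ± 2.24 RPM in heat and 2.41 ± 1.35 RPM in control and a log2 change of 1.62 ± 0.37 on the CPM scale. At 3 h it stood at 4.69, 4.52 and 4.84 RPM in heat, against 3.09, 3.31 and 3.05 RPM in control (log2 change 0.50 ± 0.26). At 1 h it stood at 4.09, 3.87 and 4.43 RPM in heat, against 3.13, 2.75 and 3.02 RPM in control (log2 change 0.72 ± 0.26). Among the 12 large members it alone had groups that were apart at all 3 times. Without it the log2 change of the family total at 6 h was 0.49 ± 0.23. Also without this member it was 0.60 ± 0.26 at 1 h and 0.52 ± 0.17 at 3 h, and the 3 values lay within their SEs of each other. The member was left out after its values had been seen, so a drop at 6 h follows from that choice.

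Its share of the family followed the same order at 6 h and not before. At 6 h it and the other 18 nt members made up 33.3%, 34.6% and 25.4% of the family's counts in heat, against 18.9%, 7.85% and 24.7% in control. Those ranges were apart by less than 1 percentage point. At 3 h the share averaged 24.6 ± 1.24% in heat and 25.1 ± 3.85% in control, and at 1 h 23.2 ± 2.52% in heat and 21.8 ± 3.50% in control (SD, n = 3 each). Control 6 h replicate 2 was the lowest library of all, with 30 of 382 counts at 18 nt (95% Wilson interval 5.56% to 11.0%). Intervals and limits of this kind cover counting error only.

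The most abundant member, ccaaTGGATCCTTCTGagcct of 21 nt, differed less. At 6 h it stood at 5.06, 7.69 and 5.64 RPM in heat, against 3.93, 3.50 and 2.79 RPM in control, and the groups did not overlap (log2 change 0.59 ± 0.24). At 3 h it stood at 4.95, 5.74 and 3.94 RPM in heat, against 3.81, 4.25 and 2.73 RPM in control (0.36 ± 0.31). At 1 h it stood at 3.83, 5.47 and 6.81 RPM in heat, against 3.43, 4.94 and 5.96 RPM in control (0.44 ± 0.32). At 1 and 3 h the heat and control libraries of this member were interleaved.

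The 22 and 23 nt members that end at the same base, ranks 3 and 4, were apart at 3 h and at 6 h. The 22 nt member accaaTGGATCCTTCTGagcct stood at 2.10, 3.38 and 1.69 RPM in heat 6 h, against 1.11, 1.01 and 1.42 RPM in control 6 h (log2 change 0.73 ± 0.28). At 3 h it stood at 1.56, 1.36 and 1.48 RPM in heat, against 0.557, 0.563 and 0.930 RPM in control (1.03 ± 0.36). At 1 h it overlapped, with 1.48 ± 0.266 RPM in heat and 1.33 ± 0.421 RPM in control (0.39 ± 0.38).
The 23 nt member aaccaaTGGATCCTTCTGagcct stood at 1.81, 2.45 and 1.90 RPM in heat 6 h, against 0.983, 1.01 and 0.601 RPM in control 6 h (0.99 ± 0.33). At 3 h it stood at 2.05, 1.94 and 1.59 RPM in heat, against 0.619, 1.00 and 0.930 RPM in control (1.06 ± 0.33). At 1 h, with 1.57 ± 0.571 RPM in heat and 0.864 ± 0.285 RPM in control, the lowest heat library lay within the range of the controls (1.11 ± 0.44).

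**Figure D3:**
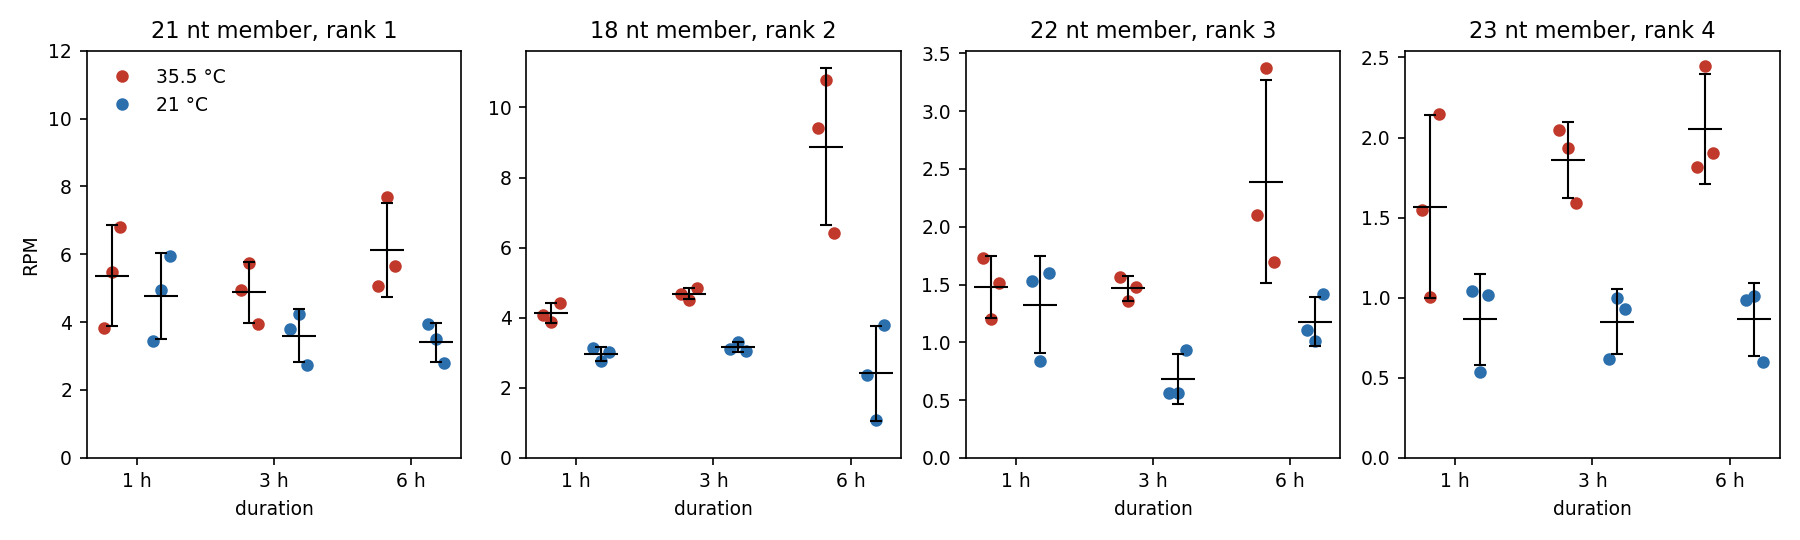
Levels in RPM (vertical axes, scaled separately) of the 4 most abundant miR5083 members at 1, 3 and 6 h, heat (35.5 °C, red) left of control (21 °C, blue), points for libraries and bars for mean ± SD (n = 3). The 18 nt member of rank 2 reaches 8.88 RPM on average in heat 6 h and 2.41 RPM in control 6 h, while the 21 nt member of rank 1 overlaps between temperatures at 1 and 3 h.

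The longer members did not keep that order at 6 h. In heat 6 h replicate 2 sequences of 24 to 25 nt were scarce outside the family too, as given below. The 24 nt member aaaccaaTGGATCCTTCTGagcct stood at 1.43, 0.427 and 1.59 RPM in heat 6 h, against 0.655, 1.05 and 1.33 RPM in control 6 h (log2 change 0.06 ± 0.60). Heat 6 h replicate 2 lay below all controls there and the other heat libraries above them. At 3 h this member stood at 1.05, 1.71 and 0.614 RPM in heat, against 0.0619, 0.281 and 0.756 RPM in control (1.57 ± 0.70), and at 1 h its groups were apart, with 1.26 ± 0.230 RPM in heat and 0.794 ± 0.346 RPM in control (0.91 ± 0.41). The 25 nt member gaaaccaaTGGATCCTTCTGagcct stood at 0.827, 0 and 0.882 RPM in heat 6 h, against 0.655, 0.650 and 0.816 RPM in control 6 h (-0.39 ± 0.93). Its log2 changes were 0.79 ± 0.73 at 3 h and 0.51 ± 0.49 at 1 h. The other 25 nt member, aaaccaaTGGATCCTTCTGagcctg, stood at 1.59, 0 and 1.06 RPM in heat 6 h, against 0.287, 1.44 and 0.558 RPM in control 6 h (0.06 ± 1.05). It was apart at 1 h, with 0.540 ± 0.139 RPM in heat and 0.322 ± 0.140 RPM in control (1.01 ± 0.55), and had the lower mean in heat at 3 h (-0.50 ± 0.50).

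The remaining 5 large members had means of at most 1.60 RPM in every group. The 19 nt member aaTGGATCCTTCTGagcct stood at 1.08, 1.05 and 1.34 RPM in heat 6 h, against 0.696, 0.686 and 0.387 RPM in control 6 h, without overlap (0.76 ± 0.44). The 23 nt member accaaTGGATCCTTCTGagcctg averaged 1.14 ± 0.327 RPM in heat 6 h and 0.535 ± 0.369 RPM in control 6 h (0.77 ± 0.53). For the 24 nt member aaccaaTGGATCCTTCTGagcctg the means at 6 h were 1.60 ± 0.765 RPM in heat and 0.914 ± 0.156 RPM in control (0.67 ± 0.53). Both overlapped between temperatures at all 3 times, as did the 2 members that follow. The 20 nt member caaTGGATCCTTCTGagcct averaged 0.375 ± 0.108 RPM in heat 1 h and 0.632 ± 0.403 RPM in control 1 h (-0.51 ± 0.57), the lower mean in heat, and its log2 changes were 0.40 ± 0.84 at 3 h and 0.16 ± 0.53 at 6 h. The 19 nt member aTGGATCCTTCTGagcctg averaged 0.945 ± 0.513 RPM in heat 6 h and 0.493 ± 0.477 RPM in control 6 h (0.62 ± 0.69).

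Counted over the large members, means were higher in heat for 11 of 12 in the 1 h table, for 10 in the 3 h table and for 11 in the 6 h table. Of all members with reads, the higher mean lay in heat for 25 of 32 after 1 h, for 17 of 28 after 3 h and for 17 of 29 after 6 h. The share of all listed sequences with a higher mean in heat was not computed. The members overlap in sequence, and 26 of them had fewer than 25 counts over all libraries. The filter on low counts left 11 members at 1 h, 12 at 3 h and 12 at 6 h. Of these, 3 had every heat library above every control library in RPM at 1 h, 3 at 3 h and 5 at 6 h. The share of all sequences past the filter with that order was 4.19% at 1 h, 12.8% at 3 h and 20.1% at 6 h. Of all sequences tested, edgeR's quasi-likelihood test at an adjusted p under 0.05 called 1.76% at 1 h, 4.35% at 3 h and 12.1% at 6 h (0.541%, 0.982% and 6.07% higher, 1.22%, 3.37% and 6.07% lower). The median log2 change of the members past the filter was 0.72 at 1 h, 0.56 at 3 h and 0.64 at 6 h, beside 0.07, -0.08 and -0.00 over all sequences tested. As the members were chosen on this contrast, nothing is read from their counts and no call of a member is given.

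By length class, the means at 6 h were furthest apart in the shortest members, with a ratio of heat to control of 3.06 at 18 to 19 nt, 1.74 at 20 to 22 nt and 1.49 at 23 to 25 nt. At 1 h the ratios from the shortest class to the longest were 1.39, 1.10 and 1.59. At 3 h they were close, at 1.47, 1.46 and 1.57, and the last includes control 3 h replicate 1. That library had the lowest share of all at 23 to 25 nt, 15.9% of its family counts. Its 1.67 RPM in this class was the lowest of the 18 libraries, where the control 3 h mean was 3.67 RPM. Ratios without it were not computed, so no order of the classes is read at 3 h. Members of 18 to 19 nt summed to 11.6, 13.2 and 8.36 RPM in heat 6 h, against 3.36, 2.17 and 5.33 RPM in control 6 h. Members of 20 to 22 nt summed to 7.99, 12.8 and 8.68 RPM in heat 6 h, against 6.10, 5.42 and 5.46 RPM in control 6 h. Neither class overlapped between temperatures at 6 h. Members of 23 to 25 nt did, with 8.75, 5.16 and 8.82 RPM in heat 6 h and 3.97, 6.21 and 5.07 RPM in control 6 h. The 5.16 RPM was that of heat 6 h replicate 2, and the other heat libraries lay above all controls. That library also held the 12.8 RPM at 20 to 22 nt. The 6 h ratios of these 2 classes without it were not computed, so their order is not read. At 3 h none of the 3 classes overlapped, with means of 6.01, 7.45 and 5.77 RPM in heat and 4.10, 5.11 and 3.67 RPM in control from the shortest class to the longest. At 1 h the class of 20 to 22 nt overlapped (7.76 ± 1.49 RPM in heat, 7.07 ± 1.95 RPM in control), while the other classes did not. The shares of the classes within the family overlapped between heat and control at all 3 times.

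**Figure D4:**
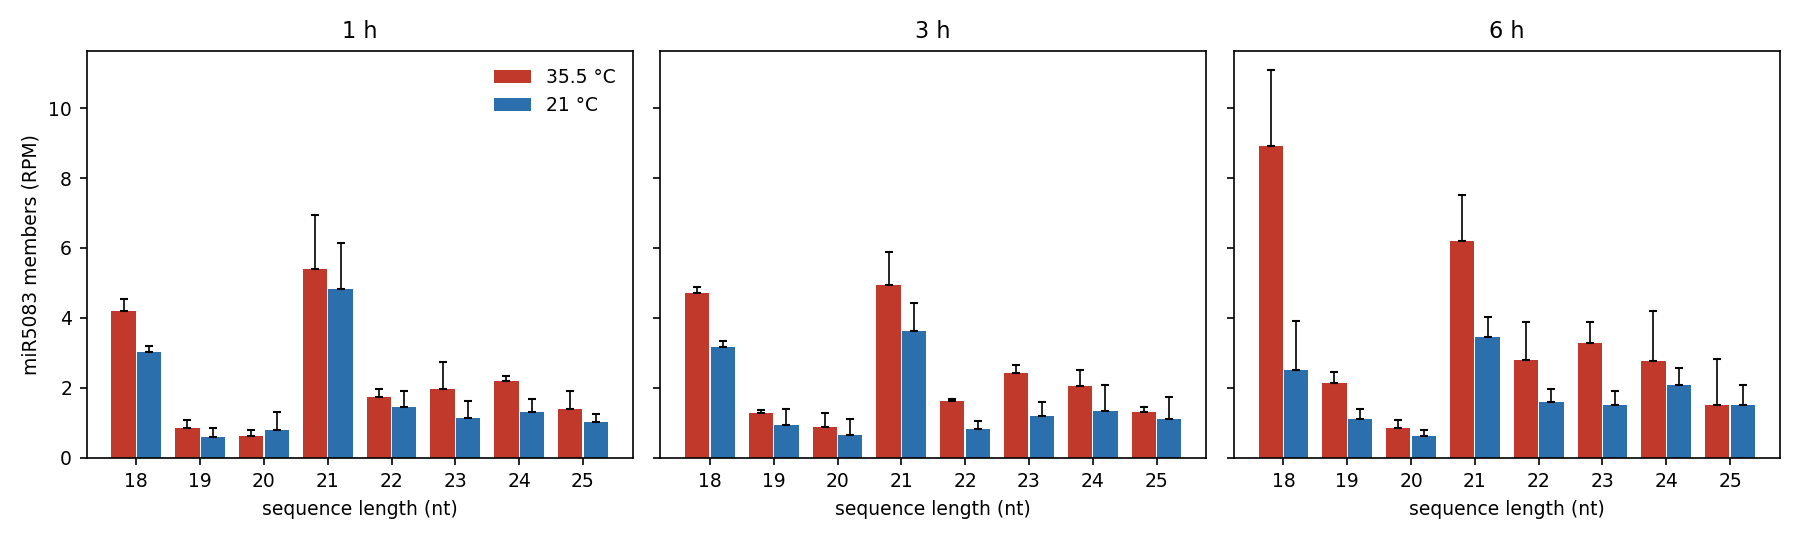
Mean level of miR5083 members of each length in RPM (vertical axis) by length in nt, at 1, 3 and 6 h, with heat (35.5 °C, red) left of control (21 °C, blue), and error bars of 1 SD upward (n = 3). The bars are highest at 18 nt, the shortest length listed, and at 21 nt. At 6 h the bar of 18 nt reaches 8.92 RPM in heat and 2.51 RPM in control.

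Libraries that stood apart in length touch these values. In heat 6 h replicate 2, members of 24 to 25 nt took 3.86% of the family's counts (95% Wilson interval 2.73% to 5.42%), and 24 to 25 nt took 0.111% of the counts of all other sequences. That library had 0 of 804 family counts at 25 nt (95% Wilson interval 0% to 0.4755%). In control 3 h replicate 1 the shares were 8.85% of the family (6.27% to 12.4%) and 0.148% of the rest. The other libraries held 13.3% to 30.9% and 0.239% to 0.318%. Both libraries were thus the lowest for the family and for the other sequences alike. The part of this shortage in the family total and in the values of its longer members was not tested. Without heat 6 h replicate 2 the log2 change of the family total at 6 h was 0.89. Without control 3 h replicate 1 that of 3 h was 0.45.

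**Figure D5:**
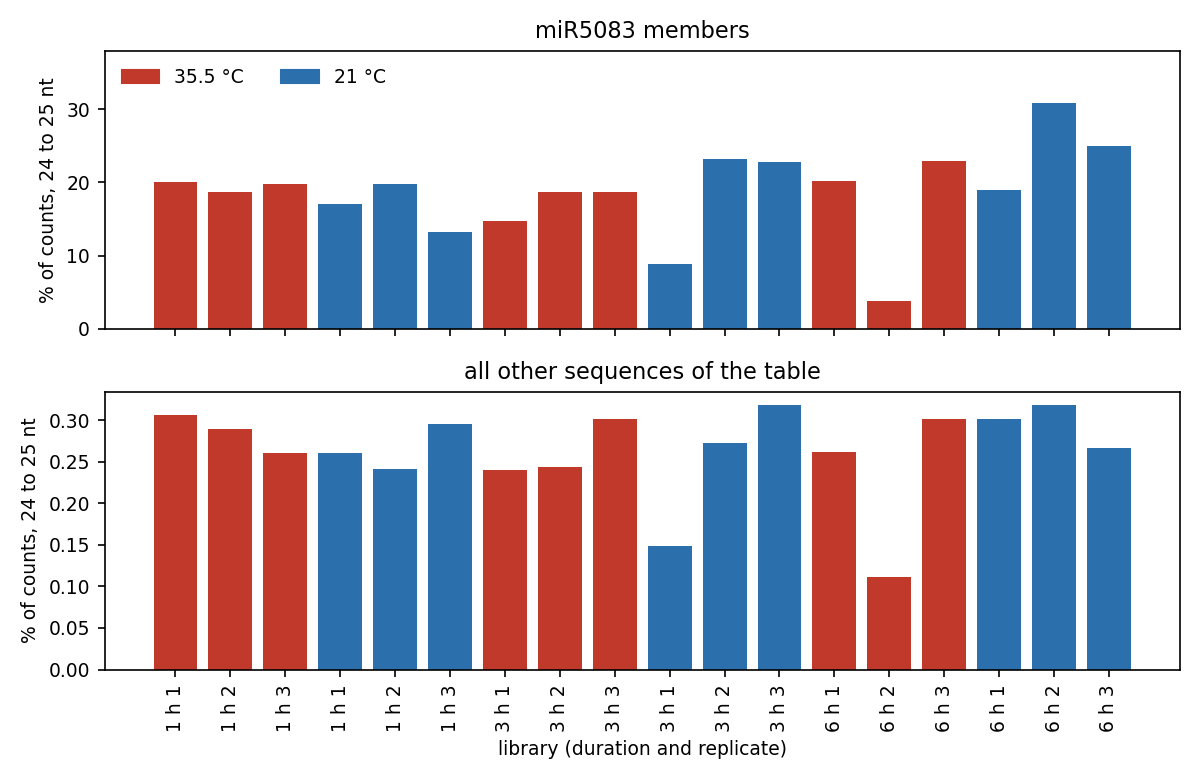
Share of counts of 24 to 25 nt in each of the 18 libraries (horizontal axis, by duration and replicate), for miR5083 members (upper panel) and for all other listed sequences (lower panel), in % of counts, with heat in red and control in blue. Heat 6 h replicate 2 and control 3 h replicate 1 are the lowest in both panels, at 3.86% and 8.85% of the family.

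Within 1 temperature and 1 lane the family did not differ detectably between times. In 1 fit of all 18 libraries on the 2720 sequences listed in all 3 tables, the family averaged 288 ± 13.9 CPM in heat 3 h and 315 ± 78.0 CPM in heat 1 h (SD, n = 3 each). The log2 difference of 3 h minus 1 h was -0.13 ± 0.22 (edgeR adjusted p = 0.890). It turned to 0.068 with the implied library totals and to 0.094 without heat 1 h replicate 3. In control it averaged 211 ± 21.3 CPM at 6 h and 193 ± 12.8 CPM at 3 h, a log2 difference of 6 h minus 3 h of 0.13 ± 0.22 (edgeR adjusted p = 0.886). These contrasts use libraries that also enter heat against control. edgeR called 0 of 83 families in each of them (0%), with 7 families under an unadjusted p of 0.05 in the first and 5 in the second, and DESeq2 called 0 in each.

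The families whose level followed that of miR5083 most closely over the 18 libraries were miR9863, miR9779 and miR319, the last a regulator of TCP transcription factor mRNAs. Over log2(RPM + 0.1), Pearson's r was 0.74, 0.73 and 0.68 in that order among 61 other families of at least 1 RPM. With each time centred on its own mean the same 3 led, with r of 0.81 for miR9779, 0.74 for miR9863 and 0.71 for miR319. All points share library, depth and treatment, so r is a description. The log2 changes of heat over control at 1, 3 and 6 h were 0.39, 0.36 and 1.15 for miR9863, 0.62, 0.48 and 0.67 for miR9779, and 0.30, 0.46 and 0.70 for miR319. In make-up, miR9779 was the nearest of the 3 to miR5083, with 32.8% of its counts at 18 to 19 nt, 52.5% at 20 to 22 nt and 14.7% at 23 to 25 nt, and 0.946% in mature sequences. Mature sequences took 35.5% of the counts of miR9863 and 8.72% of those of miR319, and neither had over 1% of its counts at 23 to 25 nt.

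Of the families that act on the silencing machinery, miR162 (DICER-LIKE mRNA), miR168 and miR403 (ARGONAUTE mRNAs), only miR168 passed the filter at each time, and it was called at none of them by edgeR or DESeq2, with an unadjusted p over 0.05 each time. Its log2 changes were 0.07 at 1 h, -0.67 at 3 h and -0.08 at 6 h. Of 9 cereal families, miR444, miR528, miR1432, miR5048, miR5049, miR5051, miR5052, miR5200 and miR9863, all passed the filter. Among them edgeR called 0 at 1 h (2 under an unadjusted p of 0.05, 1 by DESeq2), 2 were called lower at 3 h, and at 6 h 2 were called higher and 2 lower. The shares of all tested families called were 0% at 1 h (6 of 75 under an unadjusted p of 0.05, 1 by DESeq2), 2.63% at 3 h and 16% at 6 h, the last made up of 9.33% higher and 6.67% lower. The median log2 change of the cereal families was -0.32 at 1 h, -0.68 at 3 h and -0.18 at 6 h, below the median of all families each time.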

How the data were processed

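Small RNA libraries of barley shoots were made with a TruSeq small RNA kit, per the labels' protocols. The deposited tables hold whole-read counts per sequence and library, as the authors gave them, with RPM values per the file headers. In each library the RPM are the count times 1 constant, from which library totals were computed. Which trimmer, aligner or annotation release was used is not given in the sources read. The tables list 18 to 25 nt, and 1 emptied line of the 1 h table was left out.

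Groups and lanes came from the labels, and replicates were numbered in accession order. Replicates of a group differed in counts by more than sampling noise (chi-square per degree of freedom 13.7 to 300 over the tables, 2.29 to 12.5 over the members), so none was treated as a copy. That they are separate plants is known only from the word biological in the labels, and p-values measure the spread between these libraries.

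Counts were fitted per time with edgeR 4.0.16 (R 4.3.3, limma 3.58.1) by the quasi-likelihood test, TMM factors and filterByExpr (minimum count 10, minimum total 15), with Benjamini-Hochberg adjustment over all sequences or families and a threshold of 0.05. Family totals used the factors of the sequence table. An SE is the log2 change divided by the square root of F. DESeq2 1.42.0 was an alternative and used the same effective library sizes. Shares used Python 3.11.15, pandas 2.3.3, numpy 2.4.6 and scipy 1.17.1, and figures matplotlib 3.10.9. The fit was tested on simulated data.

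All members past the filter at any time, the annotated mature member and the 5 largest members were named. The members and lists were chosen with earlier results of these data known. Alternatives were other factors, implied library totals, DESeq2, no filter, other choices of members, and leaving out each library.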

Additional observations from a re-analysis of the deposited data

How the results depend on the processing

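The log2 change of the family total in heat kept its sign in all alternatives run. At 1 h it was 0.37 with implied library totals and 0.39 with 20 to 22 nt members alone, and 0.39 to 0.77 leaving out 1 library. At 3 h leaving out 1 library gave 0.45 to 0.59. At 6 h it was 0.99 with implied totals, 0.53 with 20 to 22 nt members, 0.90 with 18 to 23 nt members, 0.49 without the 18 nt member, and 0.62 to 0.89 leaving out 1 library (the last 2 choices of members were made after seeing the data). Implied totals also move the median of all families, to -0.13 at 1 h, -0.15 at 3 h and 0.20 at 6 h, and relative to it the family stood at 0.50, 0.73 and 0.79.

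The difference of heat 3 h minus heat 1 h reversed to 0.068 (adjusted p = 0.901) with implied totals and to 0.094 (adjusted p = 0.891) without heat 1 h replicate 3, and ranged over -0.33 to 0.094 leaving out 1 library. That of control 6 h minus 3 h ranged over 0.05 to 0.21.

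Sequences called were 20 with DESeq2 and 30 with no filter at 1 h, and 56 and 54 at 3 h. Leaving out 1 library gave 11 to 23 at 1 h, 9 to 49 at 3 h and 23 to 75 at 6 h. Families called at 1 h were 1 with RLE factors, implied totals or DESeq2, 2 with no filter and 0 to 1 leaving out 1 library. At 3 h they were 5 with DESeq2 and 2 to 3 leaving out 1 library, and at 6 h 3 with implied totals and 1 to 8 leaving out 1 library. In each time contrast no filter gave 2 families, and leaving out 1 library gave 0 to 1 in heat and 0 in control. The causes were not tested.

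No paired analysis was possible because the labels give no replicate numbers that groups share. With 328 to 972 family counts per library, members under 25 counts in all could not be compared between groups.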
